A study of Mus musculus with 185 samples.

Results

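Cycling and non-cycling fibroblasts of the infarcted mouse heart were compared within 1 single-cell capture, labelled Nov4, which held 63 of the 185 cells of the series. Cycling cells were defined by their own transcripts: a cell was called cycling when Mki67 or Top2a was above 5 TPM (a transcript abundance scaled for length and for the total of the cell), a log2(TPM + 1) value of 2.58, and non-cycling otherwise. By this rule 11 cells were cycling and 52 were non-cycling. The values of Mki67 and Top2a therefore chose the groups and are given as a description only.

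The study traced the cells that become myofibroblasts after myocardial infarction (MI), and sequenced single interstitial cells of injured and uninjured hearts in 4 captures. All cells came from adult mice of about 5 months on a C57BL/6 background (backcross N=6), and CD31+ endothelial and CD45+ myeloid cells had been sorted out. In this capture 44 cells were Tcf21-traced: they came from the infarct region of Tcf21 MCM/+; R26-eGFP mice, in which tamoxifen given for 2 weeks until 3 days before MI switches on eGFP in cells that then express Tcf21, and hearts were taken 7 days after MI. The other 19 cells, Postn+ CD31- CD45-, were activated cells without the label that expressed Postn. The labels name neither the mouse line nor the mouse of these 19 cells, and the study used both Tcf21 MCM/+; R26-eGFP and Postn MCM/+; R26-eGFP mice, so label class, genotype and tamoxifen schedule cannot be told apart. MerCreMer sits in the Tcf21 locus in the traced mice, so that 1 Tcf21 allele is altered and cells that escape recombination are not labelled. No cell is assigned to a mouse, which leaves 1 sample in either group and no test, and an SD here describes how single cells vary.

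A dividing cell copies its DNA in S phase and then, in G2 phase and mitosis, builds a spindle and separates its chromosomes. Mki67 encodes a protein that coats mitotic chromosomes, and Top2a encodes the topoisomerase that untangles them; both transcripts peak late in the cycle. After infarction resident cardiac fibroblasts divide and turn into myofibroblasts, which make collagen-rich scar matrix and contractile proteins and lose transcripts of the resting state such as Tcf21, a transcription factor of cardiac fibroblasts.

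The promoters of genes of the late cycle are known to carry the letters TTTGAA (the cell cycle genes homology region) and CCAAT (the box bound by NF-Y), and promoters of S phase genes the sites of E2F factors, searched here as TTTCCCGC, TTTCGCGC, TTTGCCGC and TTTGGCGC. The 2 genes of the rule are shown with the gene of the G2 and mitosis list and the gene of the S phase list that had the highest cycling minus non-cycling differences. Each sequence is the RefSeq promoter of 300 bases, 250 before and 50 after a start of the gene, in build GRCm38.p6, read 5′ to 3′ on the gene's strand, with the matches on either strand in capitals. The window of Mki67, at chr7:135716330-135716629 on the minus strand, held 2 TTTGAA and 3 CCAAT matches.
Mki67: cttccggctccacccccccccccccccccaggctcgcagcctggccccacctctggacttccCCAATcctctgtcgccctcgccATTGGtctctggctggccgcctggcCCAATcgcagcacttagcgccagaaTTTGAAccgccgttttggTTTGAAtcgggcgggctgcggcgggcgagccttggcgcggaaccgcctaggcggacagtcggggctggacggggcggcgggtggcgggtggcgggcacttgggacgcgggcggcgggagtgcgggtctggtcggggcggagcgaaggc
The window of Top2a, at chr11:99024140-99024439 on the minus strand, held 2 TTTGAA and 6 CCAAT matches.
Top2a: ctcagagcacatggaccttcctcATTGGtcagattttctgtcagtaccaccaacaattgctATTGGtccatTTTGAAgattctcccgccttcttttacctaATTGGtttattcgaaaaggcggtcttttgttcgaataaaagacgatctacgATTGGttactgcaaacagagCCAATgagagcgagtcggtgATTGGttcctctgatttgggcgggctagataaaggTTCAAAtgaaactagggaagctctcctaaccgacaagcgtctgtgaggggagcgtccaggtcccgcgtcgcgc
That of Cks2, which encodes a small subunit of cyclin-dependent kinases, at chr13:51644982-51645281 on the plus strand, held 4 CCAAT matches and no TTTGAA.
Cks2: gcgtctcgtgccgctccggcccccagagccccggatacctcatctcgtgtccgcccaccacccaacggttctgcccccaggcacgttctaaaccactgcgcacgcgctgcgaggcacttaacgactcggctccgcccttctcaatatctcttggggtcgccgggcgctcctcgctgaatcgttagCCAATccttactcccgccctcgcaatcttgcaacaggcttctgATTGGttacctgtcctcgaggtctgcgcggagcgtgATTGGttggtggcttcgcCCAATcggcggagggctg
That of Tk1 (thymidine kinase), at chr11:117825965-117826264 on the minus strand, held none of the words.
Tk1: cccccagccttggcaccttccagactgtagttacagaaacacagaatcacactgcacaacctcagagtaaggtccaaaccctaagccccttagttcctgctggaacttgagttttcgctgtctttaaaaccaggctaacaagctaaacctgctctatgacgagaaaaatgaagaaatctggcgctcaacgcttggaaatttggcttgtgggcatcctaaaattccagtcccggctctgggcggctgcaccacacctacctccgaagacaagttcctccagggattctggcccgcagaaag
Of the 46 G2 and mitosis genes with a promoter in the table, 32 (69.6%) held TTTGAA, against 18.1% of the promoters of all 27025 genes and 3 of 28 S phase genes (10.7%). CCAAT was in 67.4% of the G2 and mitosis promoters, 60.7% of the S phase promoters and 37.9% of all promoters. An E2F word was in 8.70%, 28.6% and 2.32% of them. The start used lay over 500 bases from the start of the RefSeq gene span for 4 of the 46 G2 and mitosis genes. Of the other 42, a choice made after seeing the data, 29 held TTTGAA. The window of Pttg1, with the next highest difference of the G2 and mitosis list after Cks2, held none of the words and is not shown. Its start lay 1482 bases from that of the gene span. A match is a run of letters and not a bound site.

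Mki67 was above the minimum in 10 of the 11 cycling cells, Top2a in 7 and both in 6. Among cycling cells Mki67 ran from 0.00 to 8.14 with a median of 7.05 in log2(TPM + 1), and Top2a from 0.00 to 9.62 with a median of 7.34. Neither transcript had any value in 48 of the 52 non-cycling cells. Nearest to the threshold of 2.58 on the cycling side was Tcf21-traced cell 34, with Mki67 at 5.49 and Top2a at 0.00. On the other side it was Tcf21-traced cell 28, with Mki67 at 1.63.

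**Figure D1:**
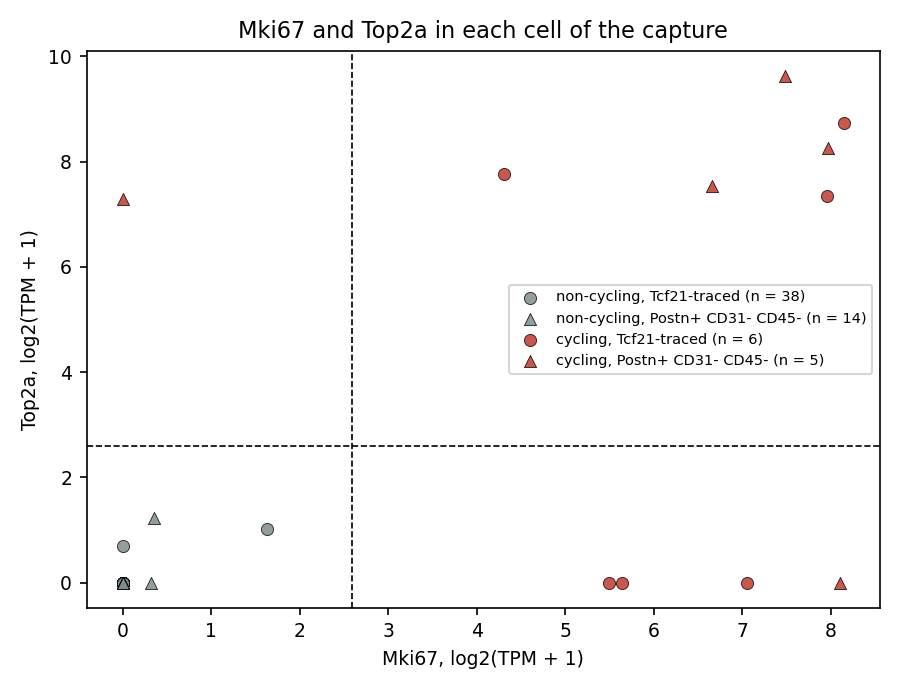
Mki67 against Top2a in log2(TPM + 1), 1 point per cell of the capture; red points are cycling and grey points non-cycling, circles Tcf21-traced and triangles Postn+ CD31- CD45-, and dashed lines mark 5 TPM. The 11 cycling cells lie past 1 or both lines, and 48 non-cycling cells share the corner at 0.

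Cycling cells were 6 of the 44 Tcf21-traced cells, 13.6% (95% Clopper-Pearson interval 5.17 to 27.4%), and 5 of the 19 Postn+ cells, 26.3% (9.15 to 51.2%). The intervals, which cover counting error only, overlap. Over the capture the share was 17.5% (9.05 to 29.1%). The cycling group was thus 6 Tcf21-traced to 5 Postn+ cells and the non-cycling group 38 to 14, so that the pooled differences mix the classes unequally. Of 115 named genes 24 had opposite signs in the 2 classes; where a pair of values is given within the classes, that of the Tcf21-traced cells comes first.

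The rest of the cell cycle transcripts, which the rule did not use, checked the label. Of 54 fixed genes of G2 phase and mitosis the cycling cells had 5 to 52 above 5 TPM, with a median of 38, and the non-cycling cells 0 to 13, with a median of 2. Of 36 genes of replication and S phase the cycling cells had 2 to 29, with a median of 19, and the non-cycling cells 1 to 22, with a median of 3.5. The label was least clear for 3 Tcf21-traced cells. Cycling cell 34 had 5 G2 and mitosis and 2 S phase genes, which goes against its label, and cycling cell 9 had 13 and 24. Non-cycling cell 35 had 13 and 22, with Mki67 and Top2a both at 0.00, so that the rule placed on the non-cycling side a cell with as many G2 and mitosis genes as a cycling one.

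Cycling cells had more genes above 5 TPM. They held 2370 to 5023 genes per cell with a median of 4138, and non-cycling cells 1746 to 4774 with a median of 3134. The means were 3839 ± 955 (SD, n = 11) and 3243 ± 840 (SD, n = 52), so the groups overlapped, and the medians differed by 1004 genes beside a pooled SD of 860 between cells. The medians were 4282 and 3065 in Tcf21-traced cells and 4001 and 3330 in Postn+ cells. The methods give only an average read depth, not that of single cells. The part of genes detected in the differences that follow was not tested.

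**Figure D2:**
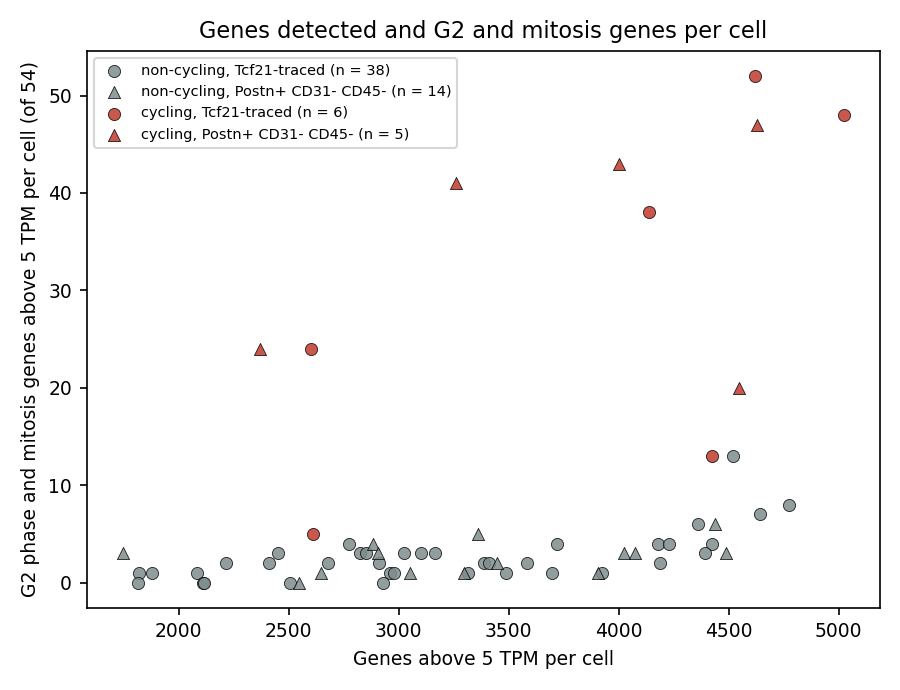
Number of G2 phase and mitosis genes above 5 TPM, of 54, against the number of all genes above 5 TPM, for each cell, with colours for the groups and symbols for the label classes. The cycling cells span 2370 to 5023 genes on the x axis, and 1 of them lies among the non-cycling cells with 5 genes on the y axis.

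Across the genome, 8243 of 17171 genes were above 5 TPM in at least 10% of the 63 cells and were compared as the mean log2(TPM + 1) of cycling minus that of non-cycling cells. The size taken for a call was 1 log2 unit, which is no test. The difference was above 1 for 1890 genes (22.9%) and below -1 for 594 genes (7.21%), and its median over all genes was 0.26. This excess of higher genes depended on the scale: with means taken on linear TPM 1364 genes were above 1 and 2336 below -1, and the higher genes fell from 76.1% to 36.9% of those past the size, with a median of -0.18 over all genes. It was 86.6% with each cell centred on its median detected gene, 59.8% among Postn+ cells alone and 65.7% among cells within the cycling cells' range of genes detected. No gene separated the groups: for each of the 8243 the ranges over cells overlapped. List medians are therefore to be read beside the 0.26 of all genes, and list counts beside the 22.9% above 1 and 7.21% below -1.

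**Figure D3:**
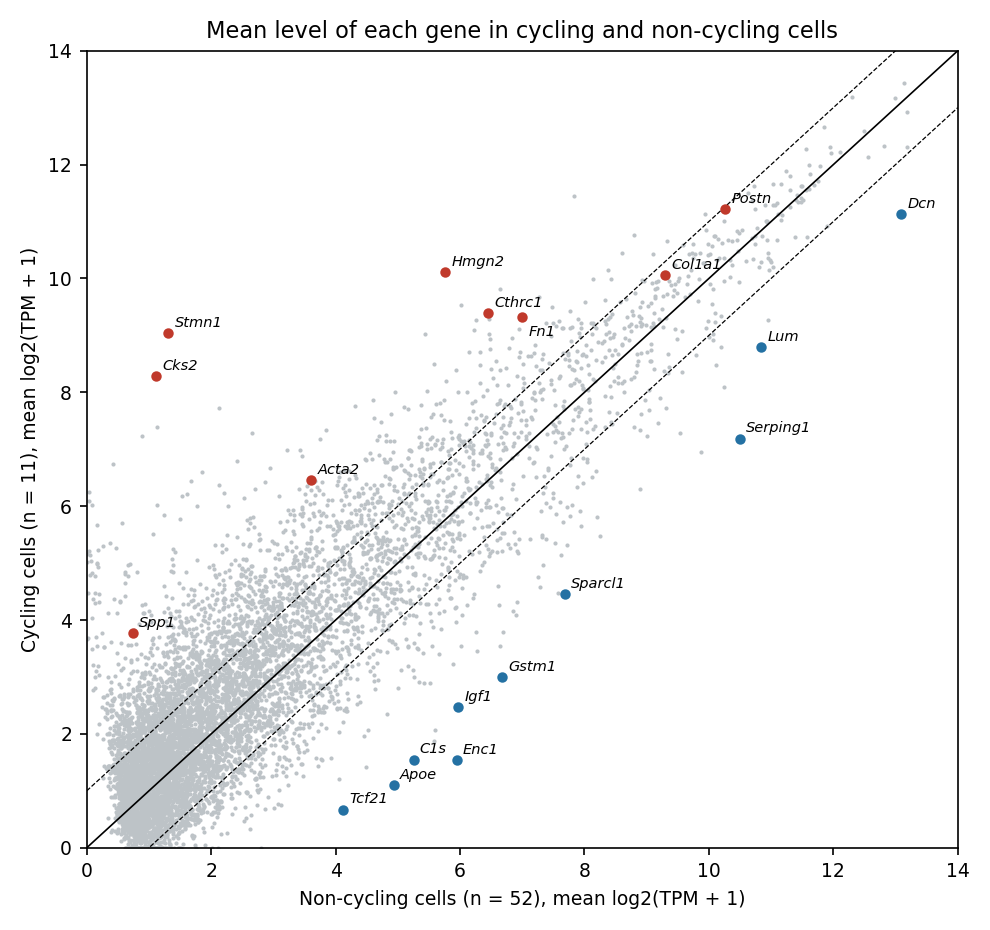
Mean log2(TPM + 1) of each of the 8243 genes in the 52 non-cycling cells (x axis) and the 11 cycling cells (y axis); the solid line marks equal means and the dashed lines 1 log2 unit, with named genes higher in cycling cells in red and lower ones in blue. Stmn1 and Cks2 stand far above the lines, and Enc1, Apoe and Tcf21 far below.

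The lists of mitosis, S phase and the chromatin of dividing cells had the highest medians, in part through the filter. Of the 54 G2 and mitosis genes 36 entered, all of them above 1, with a median of 4.45. Only 8 of these would have entered from the non-cycling cells alone, so that most had to differ, and the count supports nothing. Cks2 ran from 4.23 to 10.89 in cycling cells (median 9.54) and from 0.00 to 8.09 in non-cycling cells (median 0.00), a difference of 7.17. Pttg1 (securin, the inhibitor of separase) was above 5 TPM in 11 of 11 cycling and 10 of 52 non-cycling cells, with a difference of 6.33, and Cks1b, the most abundant of the list, differed by 5.60. The lowest were Ccna2 (cyclin A2) at 2.29 and Nusap1, a spindle protein, at 2.39.

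The S phase list had 26 of 36 genes entered, 22 of them above 1, with a median of 2.68 (1.93 in Tcf21-traced and 3.15 in Postn+ cells); 17 would have entered from the non-cycling cells alone, so the count and median are partly set by the filter. Tk1 differed by 5.50 and Rrm1, a ribonucleotide reductase subunit, by 4.64. Tk1 was above the minimum in 8 of 11 cycling and 1 of 52 non-cycling cells, so it entered only through the cycling cells and had to be higher there. Cdt1 (0.56) and E2f1 (0.33) differed least, both negative in Tcf21-traced cells (-0.51 and -0.23). Tyms, thymidylate synthase and the most abundant, differed by 3.09. Of 17 chromatin and microtubule genes of dividing cells 16 were above 1, with a median of 2.60. Stmn1, which destabilises microtubules, ran from 5.57 to 11.07 in cycling cells (median 9.76). Its median was 0.00 in non-cycling cells, where it was above 5 TPM in 9 of 52, and the means differed by 7.73. The chromatin protein gene Hmgn2 differed by 4.35, Cbx5 by 1.54 and Ptma by 0.91.

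The genes that act on entry to the cycle were mixed. Of 6 G1 cyclin and kinase genes 3 were above 1: Cdk4 differed by 3.49 and was above the minimum in 10 of 11 cycling and 31 of 52 non-cycling cells, and Cdk2, in 5 and 4 cells, differed by 2.11. The D-type cyclin genes Ccnd2 (-0.88) and Ccnd3 (-0.53) did not pass the size, Ccnd3 being at 0.28 in Tcf21-traced and -2.15 in Postn+ cells, -2.79 with medians over cells and 1.02 on linear TPM, and Myc, the most abundant of the list, differed by 0.67. Among 12 inhibitors of the cycle 2 were above 1 and 4 below -1, with a median of -0.11 whose sign was not stable (-0.57 to 0.33 over the alternatives). The CDK4/6 inhibitor Cdkn2c differed by 2.32 and Cdkn2d by 3.04; Cdkn2d was above the minimum in 6 and 4 cells and, like Cdk2, entered only through the cycling cells. Cdkn1a, which encodes p21, had medians of 0.00 and 4.86 and differed by -2.02 (-0.88 in Postn+ cells, -0.23 on linear TPM), and Gas1 (growth arrest specific) differed by -1.94. Btg2, an antiproliferative gene and the most abundant of the list, differed by -1.31, but by -0.71 without Postn+ cell 15, Tcf21-traced cell 4 or Tcf21-traced cell 34.

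Outside these lists the highest differences were as follows. Beside Mki67 and Top2a they were AK213775, a clone name with no gene symbol (6.27), Cdkn3, a phosphatase of cyclin-dependent kinases (5.94), D17H6S56E-5 (5.13), the histone genes Hist1h2ao (5.04) and Hist1h4d (4.76), the nuclear lamina gene Tmpo (4.89), 2810417H13Rik, now Pclaf, a PCNA partner (4.79), and 2700094K13Rik, now Selenoh (4.76). Cdkn3 was above the minimum in 9 of 11 cycling and 1 of 52 non-cycling cells, Hist1h2ao in 6 and 2, D17H6S56E-5 in 8 and 4 and 2810417H13Rik in 10 and 4, so these 4 entered only through the cycling cells and had to be higher there. The histone values are uncertain, since the copies of these genes are nearly identical and reads can be shared among them.

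Of 17 collagen genes 5 were above 1, against 22.9% of all genes, and none below -1, with a median of 0.67. The fibrillar collagen Col1a1 ran from 7.92 to 12.03 in cycling cells (median 10.32) and from 2.38 to 12.16 in non-cycling cells (median 9.54), and was above 5 TPM in 11 of 11 and 51 of 52. Col3a1 had medians of 10.77 and 10.70, and the mean of Col1a2, the most abundant collagen, differed by 0.67. The range of either gene in cycling cells lay within its range in non-cycling cells. Col12a1, which binds collagen fibrils, differed most (2.30; 3.37 and 0.59 within the classes), followed by the microfibrillar Col6a3 (1.96; 0.99 and 3.04), while Col6a2 (-0.41) and Col6a1 (-0.32), the lowest of the list, were positive in Postn+ cells (0.21 and 0.30) and with 1 cycling cell left out (up to 0.26 and 0.44). The collagen median was 0.35 in Tcf21-traced and 0.28 in Postn+ cells, each lower than in the pooled cells, and 0.09 on linear TPM.

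Of 18 genes of collagen processing and crosslinking 7 were above 1 and 1 below -1, with a median of 0.73. P4ha3, a prolyl hydroxylase subunit, was above the minimum in 9 of 11 cycling and 20 of 52 non-cycling cells and differed by 3.02. Fkbp10, a collagen chaperone, differed by 2.55 over all cells, by 4.14 among Tcf21-traced cells and by -0.02 among Postn+ cells. Adamts2, the procollagen N-proteinase, differed by -1.39, the lysyl hydroxylase gene Plod2 by -0.82, and Pcolce, the most abundant, differed by -0.13. The list median was 0.31 in Tcf21-traced cells, 0.51 in Postn+ cells and 0.36 in cells within the range of genes detected.

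Of 29 other matrix and matricellular genes 7 were above 1 and 5 below -1, beside 22.9% and 7.21% of all genes, with a median of 0.20 (0.24 in Tcf21-traced and -0.06 in Postn+ cells). Fn1, fibronectin, ran from 6.62 to 10.47 in cycling cells (median 9.35) and was above 5 TPM in all of them. In non-cycling cells it ran from 0.00 to 10.84 (median 8.28) and was above 5 TPM in 43 of 52. The means differed by 2.32, by 2.72 in Tcf21-traced and 1.34 in Postn+ cells, and by 0.80 for Fn1 on linear TPM. Cthrc1, which is made by activated fibroblasts of the scar, had medians of 9.96 and 7.63 and differed by 2.94, but by 0.69 on linear TPM. Spp1, osteopontin, was above the minimum in 5 of 11 and 5 of 52 cells, so that it entered only through the cycling cells, and differed by 3.02. In the other direction, Ogn differed by -2.16 and Lum by -2.05, both small leucine-rich proteoglycans, with medians for Lum of 10.07 and 11.04. Dcn, decorin, was above 5 TPM in every cell of the capture, with means of 11.13 and 13.09. Sparc, the most abundant of the list, differed by 0.17.

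Postn, periostin, had medians of 11.50 in cycling and 11.44 in non-cycling cells and was above 5 TPM in 11 of 11 and 47 of 52. Its mean differed by 0.95 over all cells, by 1.35 in Tcf21-traced cells and by -0.26 in Postn+ cells, which carry Postn by their class.

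Of 19 contractile and cytoskeletal genes 8 were above 1, against 22.9% of all genes, 11 lay within 1 unit and none was below -1, with a median of 0.91 and wide overlap of the cells. Acta2, smooth muscle actin and the classical marker of the myofibroblast, was above the minimum in 10 of 11 cycling cells, 90.9% (58.7 to 99.8%), and in 23 of 52 non-cycling cells, 44.2% (30.5 to 58.7%). It ran from 0.00 to 11.10 (median 7.17) in cycling cells and from 0.00 to 10.51 (median 1.83) in non-cycling cells, a difference of 2.85, which was 2.55 in Tcf21-traced and 2.88 in Postn+ cells. With the 6 cells that had both Mki67 and Top2a set against the 52, Acta2 differed by 0.75, against 2.85 for all 11. Tagln, transgelin, had medians of 7.02 and 3.92 and differed by 1.62, but by 1.01 without Postn+ cell 3 and by 0.44 with both transcripts required. Tpm2, tropomyosin, differed by 2.68 (0.16 on linear TPM), Zyx by 0.22 (0.95 and -1.68) and Myl9 by -0.35 (0.40 and -2.17 within the classes, 1.23 on linear TPM), and Actb, the most abundant, by 0.30. The list median was 1.14 in Tcf21-traced cells, 0.45 in Postn+ cells, 0.44 with both transcripts required and 0.34 on linear TPM.

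Markers of mural cells, which also express contractile genes, are given beside this. Of 6 smooth muscle markers 2 were above 5 TPM in any cycling cell and 5 in any non-cycling cell; the summed level had medians of 8.25 and 7.60 TPM, Smtn was the most abundant, and Myh11 was above 5 TPM in none of the 63 cells. Of 6 pericyte markers 4 and 5 were above the minimum in any cell, with median sums of 14.9 and 0.23 TPM. Cspg4 was above it in 6 of 11 cycling and 5 of 52 non-cycling cells, Notch3 in 3 and 2, Mcam in 2 and 3 and Rgs5 in 1 and 1. Kcnj8 was above it in 0 and 2 cells and Abcc9 in 0 and 0. In all, 2 cycling cells but no non-cycling cell had 3 or more of the 6. The part of these cells in the contractile result was not tested. Of 6 fibroblast markers 3 or more were above 5 TPM in each of the 63 cells, Dcn being the most abundant, with median sums of 8287 and 16374 TPM.

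Genes of fibroblast identity parted both ways, with 4 of 21 above 1, 8 below -1 and a median of -0.54 (-0.78 in Tcf21-traced and -0.55 in Postn+ cells). The sign of this median turned with the rule: it was 0.34 with both transcripts required and 0.36 with Top2a alone, and it was 0.00 with medians over cells and -0.79 to -0.19 with 1 cycling cell left out. Tcf21 was above the minimum in 1 of 11 cycling cells, 9.09% (0.23 to 41.3%), and in 31 of 52 non-cycling cells, 59.6% (45.1 to 72.99%). It ran from 0.00 to 4.98 in cycling cells (median 0.00) and from 0.00 to 10.88 in non-cycling cells (median 4.04). The means differed by -3.45, by -3.68 among the Tcf21-traced cells, whose label was switched on through the Tcf21 locus, and by -2.59 among Postn+ cells; the pooled SD between cells was 3.45. Ly6a, the surface protein Sca-1, differed by -2.59. Pdgfra, the growth factor receptor of fibroblasts, had medians of 3.14 and 4.36 and differed by -0.51, by -1.56 in Tcf21-traced and by 1.62 in Postn+ cells. Thy1 was above 5 TPM in 4 of 11 and 18 of 52 cells, with both medians at 0.00. S100a4, also called FSP1, had medians of 8.35 and 3.69 and differed by 2.02 (3.21 and 0.55 within the classes, 0.18 on linear TPM). Gata6, a transcription factor, differed by 2.19 (0.66 on linear TPM). Vim, vimentin and the most abundant, differed by -0.07.

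**Figure D4:**
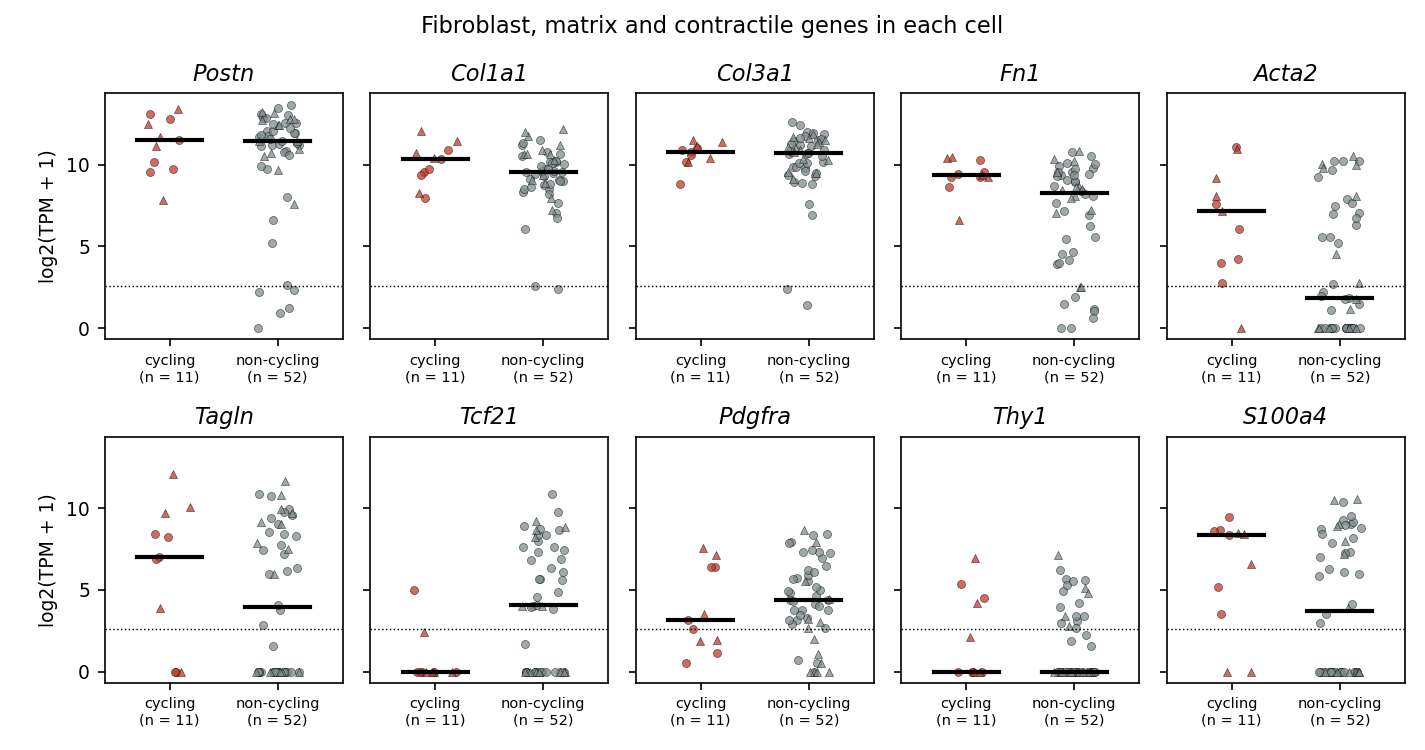
log2(TPM + 1) of 10 fibroblast, matrix and contractile genes in each cell, cycling (red, n = 11) and non-cycling (grey, n = 52), circles Tcf21-traced and triangles Postn+ CD31- CD45-, with bars at the medians and a dotted line at 5 TPM. Tcf21 is above the line in 1 cycling cell, Acta2 in 10 of 11, and Postn, Col1a1 and Col3a1 in all 11.

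The genes with the lowest differences outside the cell cycle were as follows. Enc1, which encodes an actin-binding protein, was above the minimum in 1 of 11 cycling and 35 of 52 non-cycling cells, with medians of 0.95 and 7.49 and a difference of -4.41. Apoe, apolipoprotein E, was in 2 of 11 and 35 of 52 cells and differed by -3.84. Igf1, an insulin-like growth factor, was above the minimum in 5 of 11 and 41 of 52 and differed by -3.50. Crispld2 (-3.70), Gstm1, a glutathione transferase (-3.67), Entpd2, an ectonucleotidase (-3.53), and Sparcl1 (-3.23) completed the group with Tcf21 and the complement genes C1s and Serping1. These 10 were chosen by their pooled differences, so their signs within the classes, all negative, are no separate evidence. Sparcl1 differed by -4.78 in Tcf21-traced and -0.72 in Postn+ cells, and by -0.35 with Top2a alone as the rule.

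Complement was the list with the lowest median, -1.79, with 6 of 8 genes below -1; another 5 did not enter, and over all 13 the median was -0.78. C1s, a protease of the classical pathway, was above 5 TPM in 4 of 11 cycling and 35 of 52 non-cycling cells and differed by -3.70; its value is uncertain, because the mouse has closely related copies of this gene. Serping1, which inhibits that protease and was the most abundant of the list, ran from 0.00 to 11.34 (median 7.09) and from 0.00 to 12.90 (median 11.15), a difference of -3.31. It differed by -1.31 in Postn+ cells and by -0.85 with Top2a alone as the rule. Cfb differed by -0.78 and Cd59a by 0.49. The median was -2.73 in Tcf21-traced and -0.83 in Postn+ cells.

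Immediate early genes, which rise when tissue is dissociated as well as in stress, had 7 of 19 below -1, none above 1, and a median of -0.63 (-0.91 in Tcf21-traced and -1.34 in Postn+ cells). That median ran from -0.99 to -0.25 with 1 cycling cell left out, and was 0.44 among the cells with Xist and no Y-linked gene above 5 TPM, an alternative chosen after seeing the data. Klf4 (-2.49) and Ier3 (-2.46) were lowest, but at -0.62 and 0.16 with Top2a alone as the rule. Klf6 (0.72) and Nr4a1 (0.52) were highest, and Fos, the most abundant, differed by -0.49. The last 3 had opposite signs in Tcf21-traced and Postn+ cells: Klf6 1.62 and -0.86, Nr4a1 2.03 and -1.46, Fos -1.67 and 1.17; Fos ran from -0.82 to 0.42 with 1 cycling cell left out.

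**Figure D5:**
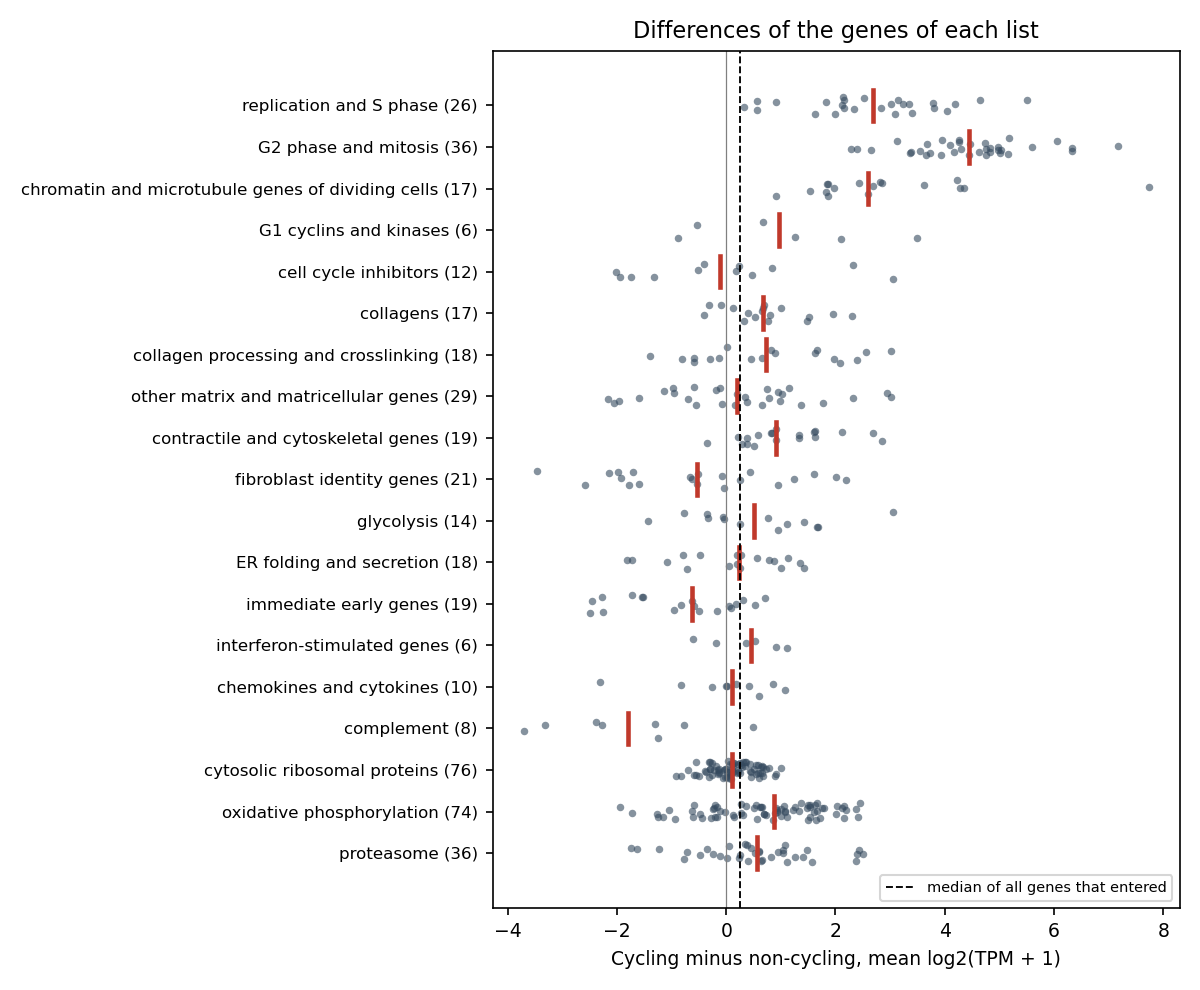
Cycling minus non-cycling difference in mean log2(TPM + 1) of each gene that entered, by list, with the number of genes in brackets; red bars are list medians, the dashed line is the median of all 8243 genes (0.26) and the grey line is 0. The mitosis, S phase and chromatin lists lie at the right, complement at the left, and the matrix and contractile lists between 0.20 and 0.91.

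Lists of general cell functions had medians between 0.10 and 0.88. Of 74 oxidative phosphorylation genes 33 were above 1 and 6 below -1, with a median of 0.88. Ndufb9 (2.46, and -0.18 in Postn+ cells) and Ndufc2 (2.42, and 0.48 on linear TPM) were highest. Uqcr10 (-1.94) and Atp5l (-1.72) were lowest, but Uqcr10 was at 1.38 with both transcripts required. Cox6a1, the most abundant, differed by -0.59. Without Postn+ cell 15, or without Tcf21-traced cell 4, Atp5l differed by -0.98. The list median was 0.42 among cells within the range of genes detected, 0.87 in Tcf21-traced cells, 0.43 in Postn+ cells and 0.16 on linear TPM. Of 36 proteasome genes 12 were above 1 and 3 below -1, with a median of 0.57, which was 1.07 in Tcf21-traced and -0.15 in Postn+ cells and -0.02 on linear TPM. Psmd13 (2.50, and 0.57 on linear TPM) and Psmd6 (2.44) were highest, and Psma3 (-1.73) and Psmb10, an immunoproteasome subunit (-1.64), lowest. Psmb1, the most abundant, differed by -0.76 (-2.08 and 0.97 within the classes). Without Tcf21-traced cell 4, or without Tcf21-traced cell 34, Psma3 differed by -1.14.

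Of 14 glycolysis genes 5 were above 1 and 1 below -1, with a median of 0.51 (0.71 and 0.64 within the classes, 0.08 on linear TPM). Tpi1 (3.06) and Pgam1 (1.68) were highest, Hk2, a hexokinase (-1.43), and Pfkp (-0.77) lowest, and Gapdh differed by 0.77. The endoplasmic reticulum list had 3 of 18 above 1 and 3 below -1, with a median of 0.23 (0.29 and -0.23 within the classes). Creld2 (1.43) and Ssr3 (1.36) stood at 1 end, Dnajb9 (-1.81) and Xbp1 (-1.73), which belong to the unfolded protein response, at the other, and Hsp90b1 differed by 0.21. Among the lists of general cell functions the 76 ribosomal protein genes varied least. Of them 1 was above 1 (Rps15) and none below -1, with a median of 0.10 (-0.06 and 0.54 within the classes). Rpl35a differed by -0.92, Rps6 by -0.83, Rpl27 by 0.91 and Rps19, the most abundant, by 0.10. With 1 cycling cell left out Rpl35a was up to -0.08 and Rps6 up to 0.09, and in Postn+ cells they differed by 0.55 and 0.20.

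The inflammatory lists were small. Of 10 chemokine and cytokine genes 1 was above 1 and 1 below -1, with a median of 0.10, which was 1.21 in Tcf21-traced and -0.87 in Postn+ cells and ran from -0.25 to 0.49 with 1 cycling cell left out. Il33, an alarmin, was above 5 TPM in 1 of 11 and 21 of 52 cells and differed by -2.32, and Cxcl14 (-0.83) was at 0 in all cycling cells. Csf1 differed by 0.85 and Cxcl1, the most abundant, by 1.08. The value of Cxcl1 turned on single cells: it was 1.70 without Postn+ cell 15, 1.68 without Tcf21-traced cell 4, 0.64 without Postn+ cell 18 and 0.69 without Tcf21-traced cell 38. Its sign turned among Postn+ cells (-0.87) and with medians over cells (-1.36). Of 17 interferon-stimulated genes 6 entered, with a median of 0.45, which was -0.02 over all 17, -0.13 in Postn+ cells and -0.58 on linear TPM. Stat2 differed by 1.11, but by 0.65 without Tcf21-traced cell 43, Oas1a by -0.19 and Irf7 by -0.60.

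Markers of the sorted-out and other cell types were sparse in both groups. Ptprc, which encodes CD45, Kdr, Tie1, C1qa and Sox10 were at 0 in all 63 cells. Pecam1, which encodes CD31, was above 5 TPM in 1 of 11 cycling and 1 of 52 non-cycling cells. None of 7 cardiomyocyte markers was above it in a cycling cell, and 5 were in some non-cycling cell. Aldh1a2, of the epicardial list, was above it in 2 of 11 and 13 of 52 cells, and Tek, of the endothelial list, in 1 and 14.

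The same rule was applied to the other captures, which hold other label classes. Nov11 and Jul29 also hold activated Postn+ CD31- CD45- cells. It found 5 cycling cells among 32 in capture Nov11, 15.6% (5.28 to 32.8%), 1 among 57 in capture Jul29, 1.75% (0.0444 to 9.39%), and none among the 33 cells of uninjured hearts in capture Jul24, which allows a share of up to 9.09% by 3 counts and 10.6% by the Clopper-Pearson interval. Of activated Postn+ CD31- CD45- cells, 5 of 19 were cycling in Nov4, 2 of 3 in Nov11 and 0 of 6 in Jul29. The intervals were 9.43 to 99.2% in Nov11 and 0 to 45.9% in Jul29. Whether these shares differ was not tested. Mouse cannot be told apart from capture or label class in them, since no cell is assigned to a mouse. Of the 5 cells in Nov11, 2 were Postn+, with 50 and 18 G2 and mitosis genes, and 3 were untraced cells from the scar, with 4 to 7, within the 0 to 13 of non-cycling Nov4 cells, so that most of this group had markers that go against its label. The single cell in Jul29 had 6.

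With these 5 cells set against the other 27 of Nov11, which is thus a weak contrast of cycling with non-cycling cells, several differences had another sign than in Nov4. Tcf21 was above 5 TPM in 3 of 5 cycling and 4 of 27 non-cycling cells, a difference of 2.29. Enc1 differed by 1.29, Igf1 by 1.56, Gstm1 by 1.28 and Serping1 by 1.85, while Apoe (-0.56), C1s (-0.38) and Sparcl1 (-1.19) kept the sign. Acta2 differed by 1.80, Fn1 by 1.90, Cthrc1 by 1.48, S100a4 by 2.79 and Stmn1 by 3.97. The median over all genes was 1.22 there, and cells with as few as 141 genes were among the non-cycling ones. With cells under 50% of the median number of genes left out, 5 cells against 20, Tcf21 differed by 1.79, Enc1 by 0.34, Igf1 by 0.33, Serping1 by -0.08 and Fn1 by 0.30, beside 0.69 over all genes, while Apoe (-2.17), Sparcl1 (-1.79), C1s (-1.28), Crispld2 (-0.58) and Entpd2 (-0.54) had the sign of Nov4. In the same cells Gstm1 differed by 0.54, Acta2 by 1.48, Cthrc1 by 1.02, S100a4 by 2.67 and Stmn1 by 4.16. Whether the captures differ was not tested.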

How the data were processed

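Single cells were captured on the Fluidigm C1 system, amplified with SMARTer chemistry and made into Nextera libraries. The values used, as deposited, cover 17171 genes and 185 cells; the title of the table names FPKM and its header TPM, and they were read as log2(TPM + 1) because of the sums below. Their processing notes name Bowtie 1.0.0, eXpress 1.5.1 and build mm10; the annotation is not given in the sources used here. Each cell summed to 999257 to 1000000 TPM. The 3 further columns of the table hold no sample and were not used. Captured cells had been viewed by microscopy, and no doublets were called. The methods give an average depth and not that of single cells, and genes above 5 TPM stood in for it.

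Group means of the deposited log2 values were subtracted, with the authors' pseudocount of 1, for genes above 5 TPM in at least 10% of cells. Shares have exact 95% Clopper-Pearson intervals; a share of 0 is given with 3 counts of its total. Named genes were the 2 of the rule, 10 fixed ones, the 10 highest and 10 lowest differences outside the cycle and ribosomal lists among genes above 5 TPM in 50% of the cells of the higher group, and in each list the 2 highest, the 2 lowest and the most abundant. The members and lists were chosen with earlier results of these data known. Promoters were matched by symbol, with the first entry of each gene. The subtraction of group means was run on simulated data with known shifts, which checks its arithmetic only. Calculations ran in Python 3.11.15 (pandas 2.3.3, NumPy 2.4.6; intervals from SciPy 1.17.1) and plots came from Matplotlib 3.10.9. The value of 1 gene counted in the lists is not reported here.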

Additional observations from a re-analysis of the deposited data

How the results depend on the processing

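The number of genes above 1 was 2922 with a pseudocount of 0.1 and 948 with 5, against 1890. The number below -1, 594 as reported, was 2336 on linear TPM, 1078 and 257 with those pseudocounts, 370 with each cell centred on its median detected gene and 1594 among Postn+ cells alone, which compares 5 cells with 14; the cause was not tested. With each cycling cell left out in turn these counts were 1747 to 2152 and 535 to 754, and the difference in median genes detected was 935.5 to 1147.5. Among cells with Xist and no Y-linked gene above 5 TPM, an alternative chosen after seeing the data, 32.1% of cells were cycling.

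Of the named genes past 1 log2 unit, Fkbp10 (-0.016) and Ndufb9 (-0.18) changed sign among Postn+ cells, Cxcl1 there (-0.87), on linear TPM (-0.087) and with medians over cells (-1.36), Stat2 on linear TPM (-0.49), Ier3 with Top2a alone (0.16), Btg2 in the Xist cells (0.086), and Uqcr10 with medians (0.14), with both transcripts required (1.38) and with Top2a alone (0.46). Of 115 named genes 75 differed by more than 1. In every alternative that left no single cell out, 38 of the 75 did so with the same sign, and 64 kept the sign. Those that did not were the genes just named and Nusap1, Spp1, Il33 and Psmb10, which were at 0 with medians over cells. The identity list had a median of 0.34 with both transcripts required, 0.36 with Top2a alone and -0.02 with at least 10 G2 and mitosis genes as the rule. The medians of collagens (0.09 to 0.88), collagen processing (0.07 to 1.19) and contractile genes (0.34 to 1.24) kept their sign under the alternatives run, and that of other matrix genes did not (-0.12 to 0.46). A threshold of 20 TPM gave the same 11 cells and 1 TPM gave 13. No paired analysis was possible because the labels give no mouse and the result comes from no test. With 11 cycling cells from 1 capture, the mouse cannot be separated from the cycle, and a transcript at 0 in a cell may be one that was not captured.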

Other observations

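The sex-linked transcripts were not spread evenly over the groups; they were looked at after the data were seen. Xist without any of 4 Y-linked genes (Ddx3y, Eif2s3y, Kdm5d, Uty) was above 5 TPM in 9 of 11 cycling cells and 19 of 52 non-cycling cells. A Y-linked gene without Xist was above it in 1 cycling and 15 non-cycling cells, both in 0 and 3, and neither in 1 and 15. The capture thus held transcripts of both sexes, and the labels give no sex. Among the 9 and 19 cells with Xist only, Tcf21 differed by -3.84, Acta2 by 4.30 and the identity list by a median of -0.88, while the immediate early list had a median of 0.44 in place of -0.63. The part of sex or mouse in the differences was not tested.

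Leaving out the cells whose G2 and mitosis genes went against the rule, Tcf21-traced cells 34 and 35, also chosen after seeing the data, gave 2120 genes above 1 and 539 below -1, with a median of -0.20 for the identity list and 0.86 for the contractile list.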
